A study of Mus musculus with 6 samples.

Results

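The Kruppel-like factor genes are described here in 32D, a mouse myeloblast-like cell line grown in medium with serum and interleukin-3. The members were the 10 rows of the deposited gene table named Klf2, Klf3, Klf4, Klf6, Klf7, Klf9, Klf10, Klf11, Klf13 and Klf16, of 54532 rows in all. Both groups had been transduced with an MSCV-IRES-GFP retrovirus for human U2AF1, which encodes a splicing factor that reads the end of introns. It was the wild-type protein in the WT group and the S34F mutant in the S34F group, with 3 mRNA libraries each. The mouse U2af1 gene was present in both groups, and the labels do not say whether the transduced cells were a pool or a clone, or whether libraries of a group came from separate cultures. P-values are therefore set against a spread between libraries that may be technical. Below, the 3 values of a group stand in the order of the replicate numbers.

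Kruppel-like factors are transcription factors that bind GC-rich and CACCC sequences through zinc fingers at their C-terminal end. One subgroup, to which Klf2, Klf4, Klf6 and Klf7 belong, mostly activates transcription. Klf3 recruits the corepressor CtBP, and Klf9, Klf10, Klf11, Klf13 and Klf16 carry a motif that binds the corepressor Sin3A. In blood cells Klf2 is known for lymphocyte and monocyte quiescence, Klf4 for monocyte differentiation and Klf3 for B cell and erythroid development, while Klf6 and Klf10 are among the genes that cells switch on quickly after a stimulus.

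Library totals lay between 16509899 and 19129250 counts. At these depths 1 count equalled 0.0520 to 0.0608 CPM, counts scaled to the size of each library by TMM. The counts of WT replicates 2 and 3 were much alike, with a chi-square per degree of freedom of 2.30, where the remaining pairs of a group gave 24.7 to 39.8. Therefore the calls of named genes are also given with these 2 summed into 1 library. Mouse U2af1 lay between 57.3 and 91.9 CPM in S34F and between 56.9 and 97.9 CPM in WT, and gene counts do not show which human allele a library holds. The leukocyte gene Ptprc lay between 323 and 562 CPM over the 6 libraries and the receptor gene Csf2rb between 570 and 831 CPM. Spi1, a myeloid transcription factor gene, had 217, 194 and 170 CPM in the S34F libraries and 120, 131 and 134 CPM in the WT libraries, and passed as higher in S34F (log2 fold change 0.60, edgeR adjusted p = 0.0491). Its call was lost with any 1 library left out other than WT replicate 1, with WT replicates 2 and 3 summed (adjusted p = 0.192), with the GC trend removed (0.132), with upper-quartile factors (0.0541) and with library totals alone (0.0575), in a range of 0.00107 to 0.205 over the alternatives. Of the granule genes that mark myeloblasts, Prtn3 lay between 22.3 and 51.7 CPM, Mpo between 2.99 and 15.8 CPM and Elane at 0.324 CPM or less. The transcription factor gene Cebpa was listed at 0 in all libraries, and whether the authors' counting lowered this value was not tested.

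Klf6 and Klf16 rose in S34F cells, and no member fell. Klf6 was 2.13-fold and Klf16 1.78-fold higher. Of the 7 members with enough counts to be tested, these 2 passed the edgeR quasi-likelihood test at a Benjamini-Hochberg adjusted p under 0.05, where 2.18% of the 13444 genes tested passed in either direction, 1.58% higher and 0.595% lower. The other 5 tested members did not pass, with 3 positive and 2 negative log2 fold changes. The median log2 fold change of the 7 was 0.42, against 0.00052 for all genes tested. Klf3 passed the filter on low counts only through the WT libraries, so this median does not cover all members. Klf2, Klf4 and Klf9 were too low to be tested. The members were chosen with earlier results of these data known, so none of these counts is independent support for a direction.

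**Figure D1:**
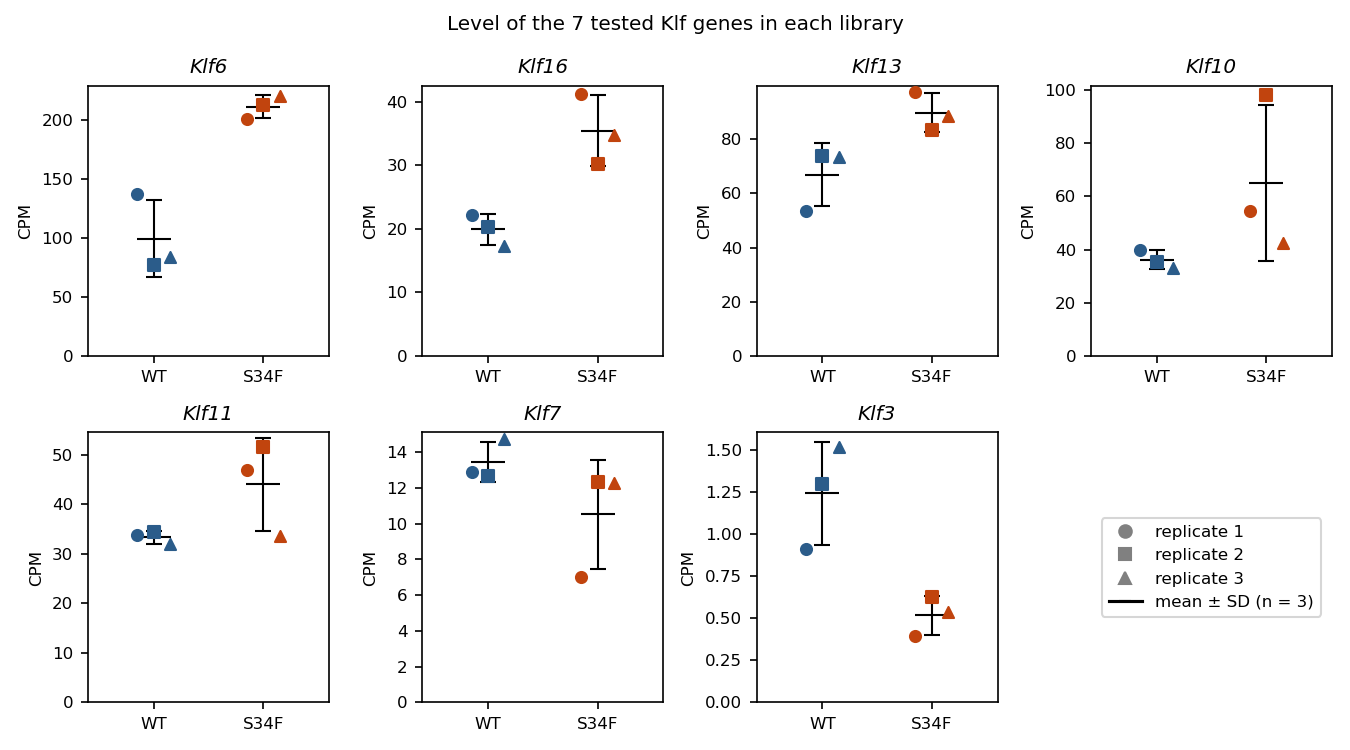
Each panel plots the CPM (y axis, from 0) of 1 tested Klf gene in the WT and S34F libraries, with a marker shape for each replicate number and the mean ± SD (n = 3) in black. The S34F libraries of Klf6 and Klf16 lie above all WT libraries, and those of Klf3 below, while the groups of Klf11 overlap.

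Per exon length, Klf6 was the member with the highest level in every library. Its values were 45.6, 48.5 and 50.1 RPKM, CPM per kilobase of exon, in the S34F libraries, and 31.2, 17.6 and 19.0 RPKM in the WT libraries. Klf10, Klf13, Klf16 and Klf11 followed, with means over the 6 libraries of 12.1, 10.4, 10.3 and 8.92 RPKM. Their library values overlapped, so the order among these 4 is not larger than the spread. Klf7 was far lower at a mean of 1.47 RPKM and Klf3 at 0.0782 RPKM, each below every library of the gene before it. Klf2 and Klf9 averaged 0.0100 and 0.0101 RPKM and could not be ordered. These lengths come from GENCODE, while the annotation used for counting is not given in the sources used here.

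**Figure D2:**
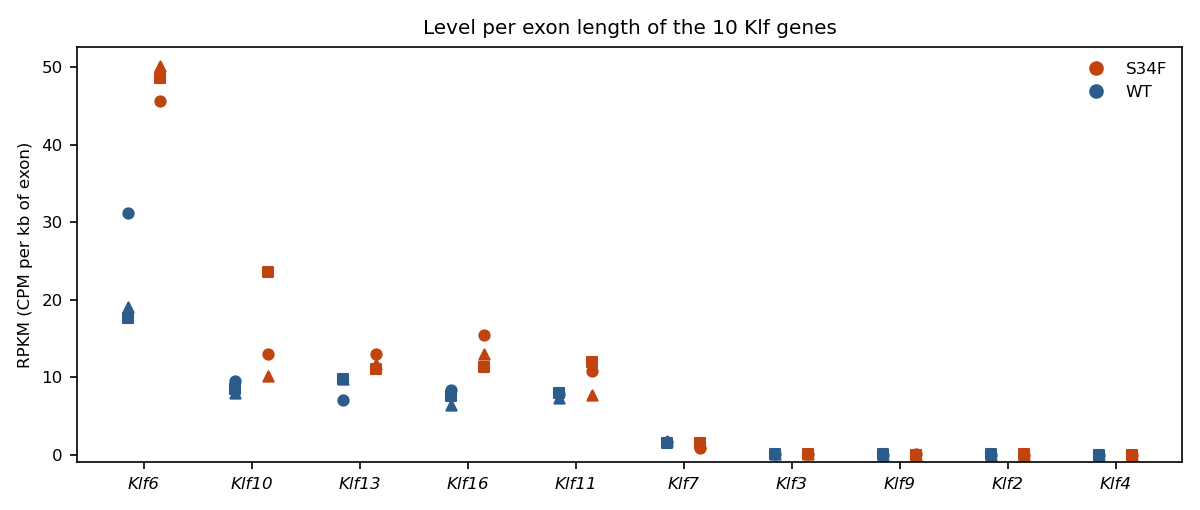
The y axis gives the level in RPKM (CPM per kilobase of exon) of the 10 Klf genes, ordered by their mean, with 1 point per library coloured by group. Klf6 lies highest at 17.6 to 50.1 RPKM, 4 genes lie together at 6.47 to 23.5 RPKM, and Klf3, Klf9, Klf2 and Klf4 lie at or near 0.

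Klf6 (ENSMUSG00000000078, chromosome 13, 5861482 to 5870394, plus strand, mm10) is a stimulus-responsive activator that also controls cell cycle inhibitors. It was counted at 200, 213 and 220 CPM in the S34F libraries and at 137, 77.3 and 83.6 CPM in the WT libraries. All 3 S34F libraries were higher than all 3 WT libraries, and WT replicate 1 stood above the other WT libraries. The mean was 211 ± 9.91 CPM in S34F and 99.2 ± 32.7 CPM in WT (SD, n = 3 per group). The log2 fold change was 1.09 ± 0.20 (SE, edgeR adjusted p = 0.0387). The call was lost without S34F replicate 1, 2 or 3 and without WT replicate 2 or 3 (edgeR adjusted p = 0.135, 0.0665, 0.122, 0.145 and 0.161), and with WT replicates 2 and 3 summed (adjusted p = 0.142), while the log2 fold change stayed between 0.93 and 1.12 in these fits. Without WT replicate 1 it was 1.40 (edgeR adjusted p = 0.00204), but the WT group then held only replicates 2 and 3, which are nearly alike. The WT spread in that fit may therefore be technical. Over all 16 alternatives the adjusted p of Klf6 lay between 5.69e-05 and 0.161.

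Klf16 (ENSMUSG00000035397, chromosome 10, 80567124 to 80577321, minus strand) encodes a repressor of the Sin3A-binding subgroup. Its levels were 41.2, 30.1 and 34.8 CPM in the S34F libraries and 22.1, 20.3 and 17.3 CPM in the WT libraries. The groups did not overlap, and S34F replicate 1 was highest. The log2 fold change was 0.83 ± 0.16 (SE, n = 3 per group, edgeR adjusted p = 0.0433). Klf16 has the second highest GC content of the members (60.4% in its longest transcript, against 42.4% for Klf6), and across the genes tested fold changes rose with GC content (Spearman's rho 0.316 over genes, which are not independent replicates). With that trend removed in each library the log2 fold change of Klf16 was 0.64 and did not pass (adjusted p = 0.0854), whereas Klf6 passed at 1.20 (adjusted p = 0.0447). The Klf16 call was also lost without S34F replicate 1 or 3, without WT replicate 2 or 3 and with WT replicates 2 and 3 summed (edgeR adjusted p = 0.152, 0.120, 0.179, 0.196 and 0.176), with a range of 0.000579 to 0.196 over the alternatives.

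**Figure D3:**
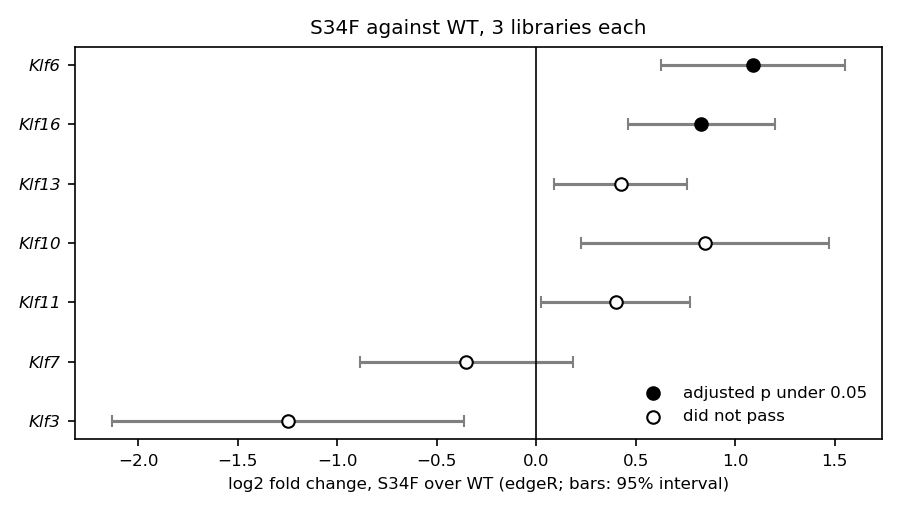
The x axis gives the log2 fold change of S34F over WT for the 7 tested Klf genes as edgeR fitted it, with bars for the 95% interval, and filled points passed at an adjusted p under 0.05. Klf6 and Klf16 are filled, at 1.09 and 0.83, and the interval of Klf7 includes 0.

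The other 3 tested genes of the Sin3A-binding subgroup also had positive log2 fold changes, and none of these passed. Klf13, a regulator of lymphocyte chemokine and survival genes, had 97.4, 83.2 and 88.4 CPM in the S34F libraries and 53.3, 73.6 and 73.5 CPM in the WT libraries. The groups did not overlap, and WT replicate 1 was lowest. Its log2 fold change was 0.42 ± 0.15 (SE, edgeR adjusted p = 0.147), and 0.28 with the GC trend removed.

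Klf10, a TGF-beta-inducible repressor, had 54.3, 98.2 and 42.5 CPM in the S34F libraries and 40.0, 35.5 and 33.1 CPM in the WT libraries. S34F replicate 2 stood far above the other libraries, and S34F replicate 3 was just above the highest WT library. The log2 fold change was 0.85 ± 0.27 (SE, edgeR adjusted p = 0.129), and 0.42 without S34F replicate 2 (adjusted p = 0.157). DESeq2 was the only tool of 3 that called it (adjusted p = 0.0302, the lowest of a range up to 0.362 over the alternatives).

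Klf11, a close relative of Klf10 with a like response to TGF-beta, had 46.9, 51.6 and 33.6 CPM in the S34F libraries and 33.8, 34.4 and 31.9 CPM in the WT libraries. S34F replicate 3 lay within the WT range, and Klf11 was the tested member whose groups overlapped. Its log2 fold change was 0.40 ± 0.16 (SE, edgeR adjusted p = 0.201). The groups of the other 6 tested members did not overlap, as in 27.1% of all genes tested. S34F was the higher group in 4, as in 14.0% of all genes tested, and the lower in 2, as in 13.1%. Of the 7 members, 6 had an unadjusted edgeR p under 0.05, as had 22.0% of all genes tested. For Klf3 these counts, of groups without overlap and of unadjusted p, are partly set by the filter.

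Klf7 and Klf3 had negative log2 fold changes that did not pass. Klf7, an activator studied in neurons and blood progenitors, had 7.00, 12.3 and 12.2 CPM in the S34F libraries and 12.9, 12.7 and 14.7 CPM in the WT libraries. S34F replicate 1 was low, and the other S34F libraries lay just under the lowest WT library. Its log2 fold change was -0.35 ± 0.24 (SE, 95% interval -0.89 to 0.18, edgeR adjusted p = 0.415), and -0.14 without S34F replicate 1. A noncoding gene on the opposite strand, Gm26649, overlaps 39.3% of the exon bases of Klf7 and was listed at 0 in all libraries. The strand setting of the counting is not given in the sources used here, so reads of the pair could not be told apart.

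Klf3, the CtBP-binding repressor, was counted with 7, 12 and 9 reads in the S34F libraries and with 15, 22 and 28 reads in the WT libraries. These are 0.395, 0.624 and 0.537 CPM in S34F and 0.912, 1.30 and 1.51 CPM in WT. All S34F libraries were lower than all WT libraries. Klf3 passed the filter on low counts only through the WT libraries, so this direction is partly set by the filter. The log2 fold change was -1.25 ± 0.39 (SE, edgeR adjusted p = 0.119), with 93 counts in all.

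Klf2, Klf9 and Klf4 were at the limit of detection. Klf2, the quiescence factor of lymphocytes, had 1 count in S34F replicate 2 and 1 in WT replicate 2, and none elsewhere. Klf9, a glucocorticoid-responsive repressor, had 2 and 1 counts in S34F replicates 1 and 3 and 2 in WT replicate 2. Klf4 had none in any library, which allows up to 0.156 to 0.182 CPM per library (3 counts, for counting error only). Zero counts were also listed for Jun, Mapk7 and Foxo1, genes that many cell types transcribe, and for Cebpa, given above. Whether the authors' counting lowered such values was not tested, and a difference between the groups was not detectable for these 3 members.

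Start regions are shown for Klf6, Klf11, Klf13 and Klf4. Klf6 is the gene that rose with a sequence at hand, and Klf4 the member without counts. Klf11 and Klf13 are the tested pair with the smallest root mean square difference in level, described below. RefSeq gave a window from 250 bases before to 50 bases after the start for 8 of the 10 members on GRCm38.p6, and none for Klf10 and Klf16. The windows are chr13:5861239-5861538 (plus strand), chr12:24651121-24651420 (plus), chr7:63938866-63939165 (minus) and chr4:55532426-55532725 (minus), written 5′ to 3′ along the gene, with capitals for the family's own kinds of site, the GC box GGGCGG and the CACCC box, on either strand.
Klf6: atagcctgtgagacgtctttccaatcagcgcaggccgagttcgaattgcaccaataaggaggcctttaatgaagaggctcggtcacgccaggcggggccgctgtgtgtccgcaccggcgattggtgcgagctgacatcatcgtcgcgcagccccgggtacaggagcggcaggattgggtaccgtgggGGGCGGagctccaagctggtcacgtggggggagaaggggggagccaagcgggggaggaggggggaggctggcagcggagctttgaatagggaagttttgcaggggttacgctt
Klf11: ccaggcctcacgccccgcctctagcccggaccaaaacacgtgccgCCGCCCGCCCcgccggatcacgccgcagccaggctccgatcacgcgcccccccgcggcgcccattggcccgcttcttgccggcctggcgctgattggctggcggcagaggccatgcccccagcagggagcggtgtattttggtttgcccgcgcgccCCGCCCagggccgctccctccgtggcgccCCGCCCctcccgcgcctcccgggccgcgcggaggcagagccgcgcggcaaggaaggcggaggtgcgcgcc
Klf13: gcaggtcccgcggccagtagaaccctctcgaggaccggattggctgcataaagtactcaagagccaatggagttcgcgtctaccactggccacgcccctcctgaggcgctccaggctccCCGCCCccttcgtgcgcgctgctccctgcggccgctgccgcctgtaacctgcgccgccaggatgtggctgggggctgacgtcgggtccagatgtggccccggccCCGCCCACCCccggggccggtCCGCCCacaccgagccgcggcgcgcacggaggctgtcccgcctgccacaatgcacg
Klf4: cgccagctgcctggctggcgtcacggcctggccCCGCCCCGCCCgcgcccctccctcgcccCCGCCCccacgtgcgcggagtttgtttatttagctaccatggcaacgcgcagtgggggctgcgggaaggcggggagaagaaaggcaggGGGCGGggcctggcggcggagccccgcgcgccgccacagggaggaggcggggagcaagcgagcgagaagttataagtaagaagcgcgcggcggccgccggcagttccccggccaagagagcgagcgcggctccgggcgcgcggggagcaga

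The GC box was found in 7 of the 8 windows, all but that of Klf9, and in 35.7% of all 32851 RefSeq windows of 300 bases. Klf6 held 1, Klf13 3 and Klf11 and Klf4 4 each, with overlapping matches counted separately. The CACCC box was found in 5 of 8 windows, those of Klf2, Klf3, Klf7, Klf9 and Klf13, and in 57.5% of all. The GC box and the CACCC box share bases in the windows of Klf3 and Klf13. The CCAAT box (CCAAT, either strand) was found in 4 of 8 windows and 37.4% of all, with 4 matches in Klf6, 3 in Klf9, 2 in Klf11 and 2 in Klf13. At least 4 matches occurred in 1.06% of all windows, a count chosen after the Klf6 window was seen. TGACGTCA, the cyclic AMP response element, and the CArG box of serum response factor were in none of the 8 windows, and in 1.79% and 1.63% of all. A match describes letters only, and binding was not measured.

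Summed over the 10 members, the level was 448, 489 and 432 CPM in the S34F libraries and 300, 255 and 256 CPM in the WT libraries. The S34F libraries all lay higher. Of the difference between the group means, Klf6 made up 60.1%. Its share of the members' counts was 44.8%, 43.5% and 50.9% in S34F and 45.6%, 30.3% and 32.7% in WT, so WT replicate 1 was like the S34F libraries in this share. In bulk RNA, a gene used by more cells and a gene with more RNA per cell cannot be told apart.

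Levels of immediate-early genes, which respond within minutes to handling and growth signals, overlapped between the groups. The mean log2 level of 13 tested genes, set to 0 at the average of WT, was 0.66, 1.37 and 0.14 in the S34F libraries and 0.99, -0.59 and -0.40 in the WT libraries. S34F replicate 2 and WT replicate 1 were highest. Klf10 also stood highest within its group in both of these libraries, and Klf6 only in WT replicate 1. Klf16 was highest within WT in replicate 1 and lowest within S34F in replicate 2. Klf3, Klf11 and, narrowly, Klf7 were highest within S34F in replicate 2 but not within WT in replicate 1. Klf13 was lowest within its group in both of these libraries. S34F replicate 3 had the highest Klf6 level of all but the lowest immediate-early level of the S34F libraries. The part of this list's variation in the Klf results was not tested. Of the 13 genes 2 rose, against 1.58% of all genes tested. These were Ier5 (log2 fold change 1.05, edgeR adjusted p = 0.0342) and Jund (0.80, adjusted p = 0.0492), and the median of the 13 was 0.80. Neither passed with WT replicates 2 and 3 summed, without S34F replicate 1 or 2 or without WT replicate 2 or 3, and Ier5 also not without S34F replicate 3. Jund was also not called with the GC trend removed (log2 fold change 0.53, edgeR adjusted p = 0.124), with upper-quartile factors, library totals alone or at least 1 CPM in 3 libraries (edgeR adjusted p = 0.0503, 0.0501 and 0.0516), or by limma-voom (0.0551). Over the alternatives the adjusted p of Ier5 lay between 4.86e-05 and 0.147 and that of Jund between 0.000355 and 0.200.

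**Figure D4:**
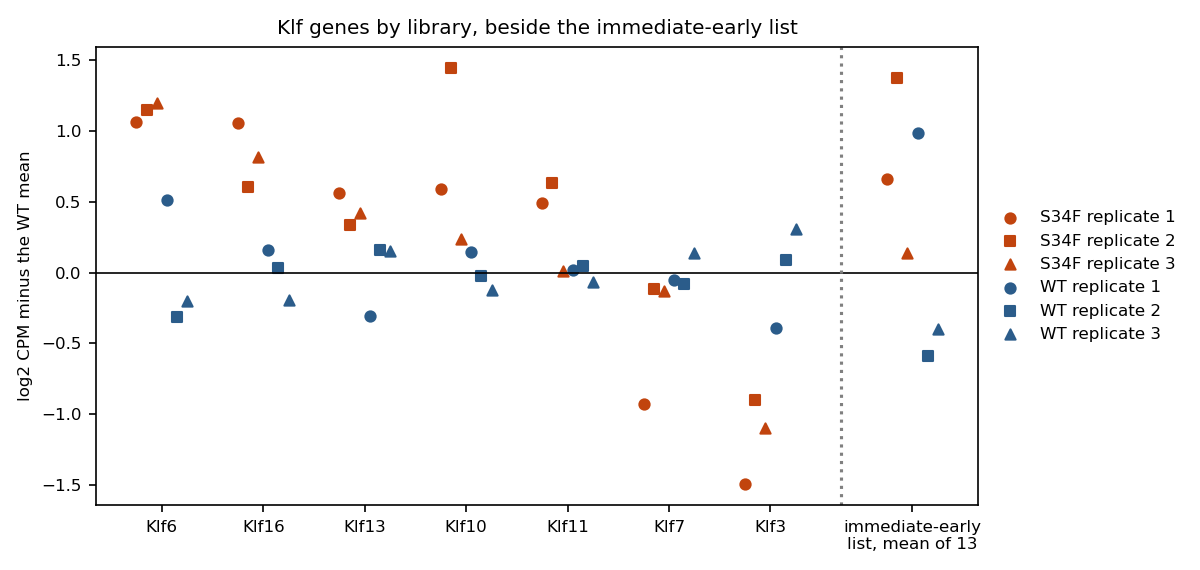
The y axis gives the log2 CPM of each library minus the WT mean, for the 7 tested Klf genes and, right of the dotted line, for the mean of 13 immediate-early genes, with colour for the group and shape for the replicate. The Klf6 points of S34F lie together at 1.06 to 1.20, whereas the immediate-early values of the groups overlap.

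Among the genes around the family, 59 of 84 listed genes could be tested, of which 3 rose and 1 fell. Of all genes tested, 1.58% rose and 0.595% fell. Of the corepressor genes, Sap30, a subunit of the Sin3A complex, rose from 23.1, 26.2 and 21.7 CPM in the WT libraries to 34.4, 38.3 and 36.8 CPM in the S34F libraries. Its groups did not overlap (log2 fold change 0.63, edgeR adjusted p = 0.0492). Sin3a itself had a log2 fold change of -0.43 that did not pass (edgeR adjusted p = 0.0869), and the median of the 9 corepressor genes was -0.11. Sap30 did not pass with library totals alone, with upper-quartile factors or with the GC trend removed (adjusted p = 0.0715, 0.0594 and 0.0819).

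Wwp1, a ubiquitin ligase known to mark Klf2 and Klf5 for degradation, fell from 127, 145 and 154 CPM in the WT libraries to 73.8, 86.4 and 72.5 CPM in the S34F libraries. All S34F libraries were lower (log2 fold change -0.87, edgeR adjusted p = 0.0182). The other 4 ligase genes did not pass, and the median of the 5 was -0.07. Klf5 was listed at 0 and Klf2 is given above. With WT replicates 2 and 3 summed, Sap30 and Wwp1 had edgeR adjusted p-values of 0.190 and 0.0894. Both calls were also lost without S34F replicate 1 or 3 or WT replicate 2 or 3, and that of Sap30 without S34F replicate 2. The adjusted p lay between 0.00133 and 0.235 for Sap30 and between 1.36e-07 and 0.0909 for Wwp1 over the alternatives.

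Genes that earlier work links to Klf proteins as targets did not pass. Of the 13 listed, 6 could be tested, with a median log2 fold change of 0.26. edgeR called 0, and DESeq2 and limma-voom called 1 each. An unadjusted edgeR p under 0.05 was found for 2, and for 22.0% of all genes tested. Cdkn1a, the p21 cell cycle inhibitor that Klf4 and Klf6 can activate, had 299, 302 and 282 CPM in the S34F libraries and 225, 165 and 164 CPM in the WT libraries. The groups did not overlap, and the log2 fold change was 0.67 (edgeR adjusted p = 0.0532). S1pr1, a Klf2 target in lymphocytes, was at or near 0.

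The inputs of the family also gave no call by edgeR in 3 lists. For the counts below, 22.0% of all genes tested had an unadjusted edgeR p under 0.05. In the ERK5-MEF2 and FOXO list the smallest p was that of Mef2d (log2 fold change 0.21, edgeR adjusted p = 0.293; 5 tested, 0 with an unadjusted p under 0.05, and 0 calls by DESeq2 and by limma-voom). In the TGF-beta list it was that of Tgfb1, with 233, 251 and 230 CPM in the S34F libraries and 188, 123 and 131 CPM in the WT libraries. Its log2 fold change was 0.69 (edgeR adjusted p = 0.0686; 6 tested, 2 with an unadjusted p under 0.05, DESeq2 1 call and limma-voom 0). In the glucocorticoid list it was that of Fkbp5 (log2 fold change 0.31, edgeR adjusted p = 0.116; 5 tested, 2 with an unadjusted p under 0.05, DESeq2 1 call and limma-voom 0).

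Klf genes outside the 10 members were mostly low. Of 7 other Klf genes, Klf8, a CtBP-binding relative of Klf3, had 19.9, 19.0 and 25.8 CPM in the S34F libraries and 13.3, 17.3 and 17.2 CPM in the WT libraries. Its groups did not overlap (log2 fold change 0.44, edgeR adjusted p = 0.201). Klf1, the erythroid factor, lay between 0.113 and 1.30 CPM, and the other 5 had at most 2 counts in any library. The 9 Sp factors share the zinc fingers and the GC box, and were not low as a list. They summed to 387 to 441 CPM in S34F and 412 to 514 CPM in WT. Of these, 4 were tested, and edgeR, DESeq2 and limma-voom called 0 of them. An unadjusted edgeR p under 0.05 was found for 2 of the 4, and for 22.0% of all genes tested. Sp4 had the smallest p (log2 fold change -0.60, edgeR adjusted p = 0.177). The 4 acetyltransferase genes gave 0 calls by the same 3 tools, with 1 at an unadjusted p under 0.05, Crebbp (log2 fold change -0.35, edgeR adjusted p = 0.223).

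Likeness to the 2 called members was measured as the root mean square difference of log2 CPM over the 6 libraries, each gene centred on its mean, among genes of at least 10 CPM. The genes most like Klf6 were Ctsz, the lysosomal protease cathepsin Z (0.0512), Atp6v0c-ps2 (0.121) and Ier5 (0.126). Ctsz had 433, 471 and 450 CPM in the S34F libraries and 300, 178 and 186 CPM in the WT libraries, so its WT replicate 1 was high as for Klf6. Atp6v0c-ps2 is annotated as a pseudogene of a proton pump gene, and its reads may belong to the parent gene. The genes most like Klf16 were Plpp2 (0.0752), Bax (0.0763) and Yju2 (0.0849). Among the members the most alike pair was Klf11 and Klf13 at 0.266, and Klf6 and Klf16 differed by 0.301. The measure is also small for genes that vary little, and a small value does not show a shared order of libraries. Within S34F, replicate 2 was highest for Klf11 and lowest for Klf13. These likeness values describe 6 libraries, of which WT replicates 2 and 3 are nearly alike.

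Markers of 9 other cell types were read beside these results. Of 20 that could be tested, 1 passed, against 2.18% of all genes tested. It was the macrophage Fc receptor gene Fcgr1, which rose (log2 fold change 1.35, edgeR adjusted p = 0.0355). Its call was lost without S34F replicate 1 or 3 or WT replicate 2 or 3, with WT replicates 2 and 3 summed (adjusted p = 0.112), with the GC trend removed (0.0549) and with the replicate number as a block (0.0506), and the adjusted p lay between 1.79e-05 and 0.131 over the alternatives. The 8 macrophage and monocyte genes summed to 312 to 395 CPM in S34F and 249 to 266 CPM in WT. Most of this sum came from 1 gene that did not pass, and Ly6c2 was listed at 0. Of the 8, 5 could be tested, with a median log2 fold change of 1.44, against 0.00052 for all genes tested. An unadjusted edgeR p under 0.05 was found for 4 of the 5, and for 22.0% of all genes tested. DESeq2 and limma-voom called 2 each, and edgeR with WT replicates 2 and 3 summed called 0. Cd68 of this list had 32.4, 32.2 and 32.0 CPM in the S34F libraries and 19.9, 7.54 and 7.46 CPM in the WT libraries (edgeR adjusted p = 0.0695). The 6 megakaryocyte genes summed to 779 to 888 CPM in S34F and 601 to 635 CPM in WT, mostly Itga2b. Neutrophil genes summed to 4.90 to 33.5 CPM in S34F and 12.1 to 15.3 CPM in WT, and the endothelial list, mostly Pecam1, to 168 to 231 and 218 to 269 CPM. Lists of mast, erythroid, T, B and fibroblast genes summed to at most 8.29 CPM in any library. The part of the macrophage and megakaryocyte genes and of Spi1, given above, in the Klf6 result was not tested.

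**Figure D5:**
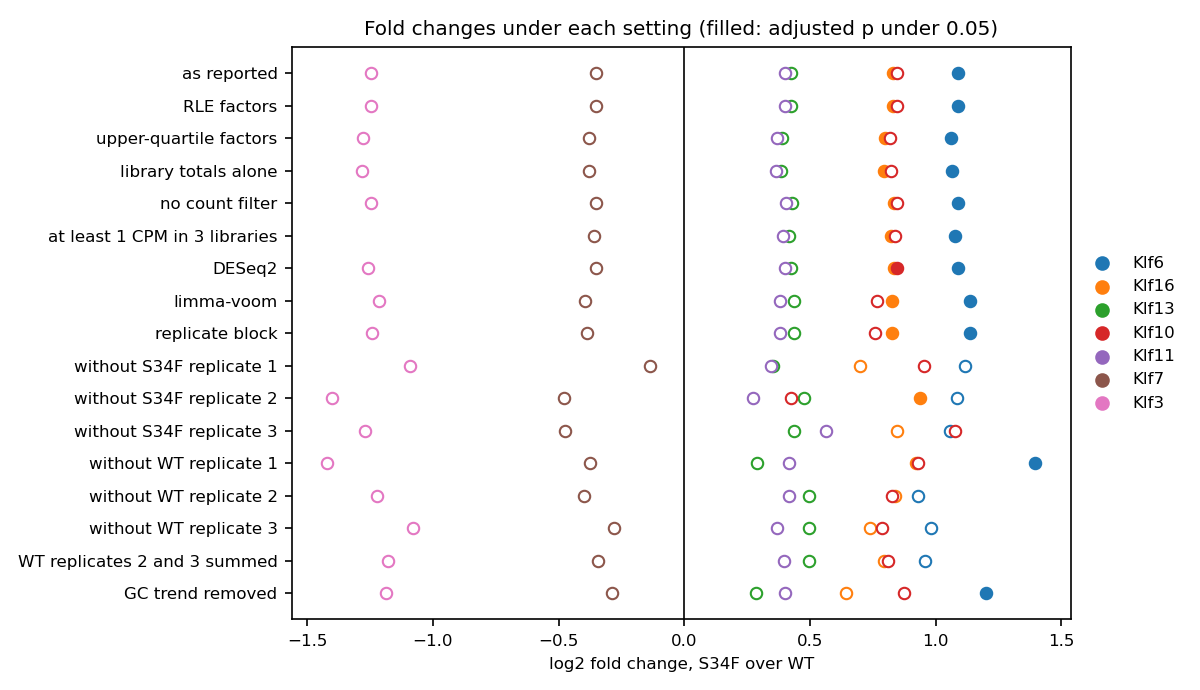
The x axis gives the log2 fold change of the 7 tested Klf genes under each setting on the y axis, and filled points passed at an adjusted p under 0.05. No point crosses 0, and Klf6 and Klf16 are open with WT replicates 2 and 3 summed and without S34F replicate 1 or 3 or WT replicate 2 or 3.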

How the data were processed

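RNA was measured in 6 libraries made with a directional kit, per the labels' protocols. The table deposited by the authors holds raw counts, as whole numbers, for Ensembl genes. HISAT2, featureCounts and mm10 were used, per the submitters' processing notes, with versions, strand setting and annotation release not given in the sources used here. Columns were matched to samples by title. Counts were tested in edgeR 4.0.16 (R 4.3.3) with TMM factors, the filterByExpr filter and glmQLFTest after a robust glmQLFit, two-sided, on genotype alone with 4 residual degrees of freedom, and p was adjusted by Benjamini-Hochberg over all 13444 genes tested. Standard errors are the log2 fold change over the root of F. CPM uses TMM factors. Exon length, GC content and coordinates came from GENCODE M21, and 27 symbols turned into dates were restored by ID. Alternatives included DESeq2 1.42.0 and limma-voom 3.58.1. The procedure was tested on simulated data. Figures used matplotlib 3.10.9.

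All members, 1 to 3 called genes per list (or that with the smallest p), the 3 genes most like each called member and the most alike pair of members were named by rule. Members and lists were chosen with earlier results of these data known, and the genes checking myeloid identity after the counts were seen, as were Cd68, Sin3a, Itga2b, Pecam1, Klf1 and the genes named for counts at or near 0. One listed marker is not reported here.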

Additional observations from a re-analysis of the deposited data

How the results depend on the processing

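Directions of the 7 tested members held in all 16 alternatives in which each could be fitted, and Klf3 was not tested at 1 CPM in 3 libraries. Against 293 changed genes, there were 763 without a count filter, 1216 by DESeq2, 161 with the GC trend removed, 20 with WT replicates 2 and 3 summed, and 19 to 1177 with 1 library left out. Against 2 changed members, there was 1 with the GC trend removed (Klf6) and 0 with WT replicates 2 and 3 summed (edgeR; 5 with an unadjusted p under 0.05, while DESeq2 on all libraries called 3 and limma-voom 2). Leaving out 1 library gave 0 to 2 members. The lowest counts of all genes, 19, 20 and 22, came without WT replicate 2, S34F replicate 1 and WT replicate 3, and the highest, 1177, without WT replicate 1. Without S34F replicate 3 there were 50. The cause of these changes was not tested.

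With the replicate number as a block, 1418 genes and 2 members changed, again Klf6 and Klf16. Whether the numbers pair the libraries could not be decided from these values. Deviations of same-numbered libraries correlated at 0.32, 0.15 and 0.066. S34F replicate 1 correlated best with WT replicate 1, against -0.25 and -0.23 with WT replicates 2 and 3. S34F replicate 3 correlated at 0.075 with WT replicate 2, slightly above its own number. WT replicates 2 and 3 are nearly alike, so the correlations hardly separate these 2. At these depths Klf2, Klf4 and Klf9 could not be compared.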
